A study of Mus musculus with 72 samples.

Results

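The genes described here build, extend or remove ubiquitin chains, and were examined in the mouse nucleus accumbens for 2 histone marks, H3K27me1 and H3K27me2, which are the mono- and dimethyl forms of a lysine in the tail of histone H3. Members were the autosomal protein-coding genes of the mm10 annotation whose symbols begin with Anapc, Cul and a digit, Fbxo, Fbxw, Fbxl, Ube2, Ube3, Ube4, Usp and a digit, or Herc and a digit. This gave 189 of 20807 genes: 11 subunit genes of the anaphase-promoting complex (APC/C), 7 cullins, 77 F-box genes, 34 E2 conjugating enzyme genes, 10 HECT ligase and E4 genes, and 50 genes named as ubiquitin-specific proteases (USP). A site belonged to a member when it overlapped the gene body or the 1000 bp before its start. The symbol rule is not a functional test. Usp6nl encodes a GTPase-activating protein, Ube2f and Ube2m conjugate NEDD8, and Ube2l6 conjugates ISG15.

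Ubiquitin is activated by an E1 enzyme, passed to an E2 and placed on a substrate by an E3 ligase, and deubiquitinases such as the USPs take it off again. Cullins are scaffolds of multi-subunit E3 ligases in which F-box proteins choose the substrate of CUL1, while HECT ligases carry the ubiquitin themselves. In neurons this system sets the turnover of synaptic proteins and receptors. H3K27me1 is a mark found over the bodies of many transcribed genes, and H3K27me2 is a broad mark laid down by the Polycomb repressive complex.

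The libraries came from isolated nuclei of adult male wildtype mice by CUT&RUN, in which antibody-bound nuclease cuts out the marked chromatin. In the chronic social defeat cohort, libraries of susceptible and of resilient mice, terms used in this field for animals that do and do not avoid others after defeat, were each set against control mice, with 4 libraries a group and mark. In the early life stress (ELS) cohort, mice with ELS and subthreshold defeat (SbD) were set against standard-reared controls with no defeat, with 3 libraries a group. Rearing and defeat both differ between these groups and cannot be told apart here. The labels do not say whether a library holds 1 mouse or a pool, so the spread between libraries may be technical. The limma p-values given below rest only on that spread. For each site it was moderated towards a trend over all deposited rows, so the p-values do not reflect the spread of that site alone. The authors' p-values for the defeat cohort come from a test on pooled reads, which leaves the spread between libraries out. Depth was 20.57 to 30.39 reads per 1000-bp bin in the defeat H3K27me1 libraries, 10.56 to 40.63 in the H3K27me2 libraries and 5 to 7.78 in the ELS libraries. Susceptible and resilient mice were compared with the same control libraries, so the 2 comparisons are not independent and are set side by side only.

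The authors deposited 5 tables of sites, and a site is called here when its adjusted p in the authors' deposited table is under 0.05. Values per site are normalised reads. They follow the order of libraries 26, 29, 32 and 35 for susceptible mice, 27, 30, 33 and 36 for resilient mice and 25, 28, 31 and 34 for their controls. In the ELS cohort the order is 40, 44 and 48 for ELS with SbD and 37, 41 and 45 for standard controls. Changes are log2 differences ± SE from limma on log2(normalised reads + 1), which understates changes at low reads. The SE is moderated like the p-values, so it can be smaller or larger than the spread of the printed reads.

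In susceptible mice, H3K27me1 at ubiquitin genes was more often lower than higher. Of 193 called member sites, 129 were lower and 64 higher than in controls. A lower site was found in 73 members (38.6%), against 16% of all genes, and a higher site in 31 members (16.4%), against 8.34% of all genes. The share of higher sites was 33.2% at members and 51.6% over the 10594 called sites of all protein-coding genes. This share depends on gene length. In genes up to 100 kb it was 22.3% at members and 25.4% over all genes, and in longer genes 58.9% and 74.6%. The other comparisons are split by length further below. In resilient mice 116 member sites were called, of which 77 were lower and 39 higher. These lay in 44 members (23.3%, against 10.7% of all genes) and 33 members (17.5%, against 8.13%), and 33.6% of member sites were higher against 48.8% over all genes. In ELS mice 38 member sites were called, 23 lower in 17 members (8.99%, against 5.44% of all genes) and 15 higher in 14 members (7.41%, against 9.79%). The share of higher sites there was 39.5% at members and 66.6% over all genes. Counting either direction, 84 members (44.4%) held a site in susceptible, 63 (33.3%) in resilient and 30 (15.9%) in ELS mice, against 20.9%, 15.5% and 13.6% of all genes.

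Members were longer than other genes, with a median of 32.7 kb against 17.6 kb, which gives a site more room to fall in them. Per Mb of gene, members held 20.2 called H3K27me1 sites in the susceptible comparison against 10.3 for all genes. The same density was 12.2 against 5.88 in the resilient and 3.99 against 4.22 in the ELS comparison. The changes were modest. At member sites the authors' deposited table gave a median log2 change of 0.41 for higher and -0.42 for lower sites in susceptible mice. In resilient mice the authors' deposited table gave medians of 0.42 and -0.42, and in ELS mice 0.84 and -0.68. Over the called sites of all genes, the medians from the authors' deposited table were 0.43 and -0.43 in each defeat comparison, and 0.92 and -0.82 in ELS mice. The median enrichment over IgG at member sites, from the authors' deposited table, was 2.8 in susceptible mice and 3.24 in their controls, 2.67 and 3.18 in the resilient comparison, and 1.89 and 2.3 in the ELS comparison.

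**Figure D1:**
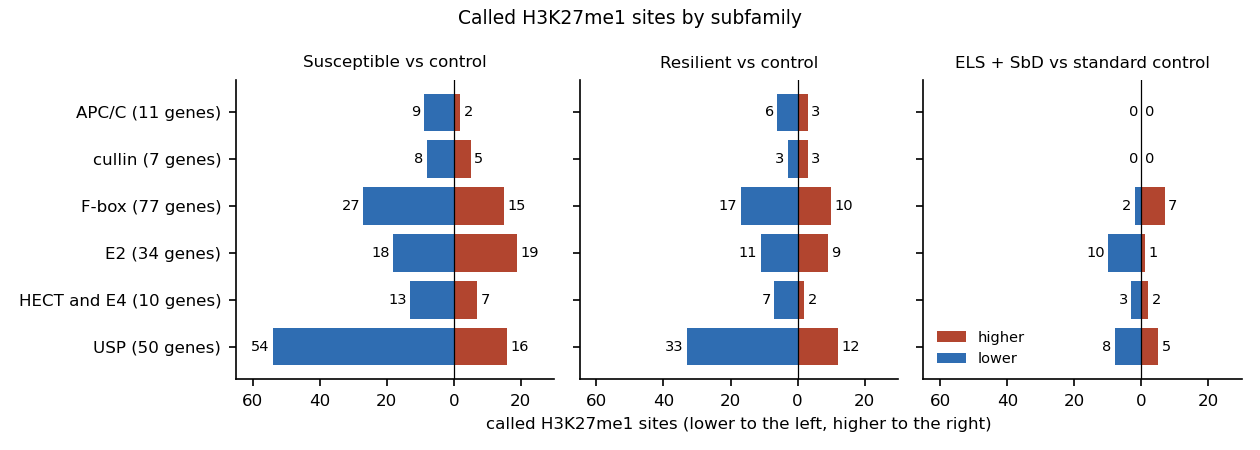
Number of called H3K27me1 sites in each group of ubiquitin genes, lower sites to the left and higher sites to the right, in the susceptible, resilient and ELS comparisons. The longest bars are the USP sites, 54 lower against 16 higher in susceptible and 33 against 12 in resilient mice, and the APC/C and cullin genes had no called site in ELS mice.

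The authors' test of the defeat tables pools the reads of a group, and limma was used to bring in the spread between libraries. All 193 susceptible, 116 resilient and 38 ELS member sites had an unadjusted limma p under 0.05, but rows were deposited because they differed in these same libraries. Of all called sites, 11993 of 12122 susceptible, 6978 of 7005 resilient and 9815 of 9893 ELS sites also did. With limma p-values adjusted over every window the authors tested, 0 member sites passed in either defeat H3K27me1 comparison and 34 of 38 passed in ELS. Of all deposited rows, 0 passed in either of these defeat comparisons and 9802 of 10234 in ELS. At an unadjusted limma p under 0.05, the same 2 defeat comparisons hold 193 and 116 sites. The libraries of both groups did not overlap at 106 of the susceptible member sites (54.9%, against 52.8% of all called sites), 69 of the resilient sites (59.5%, against 54.7%) and all 38 ELS sites (100%, against 99.0%). Susceptible library 32 was the least distant from controls, lying beyond every control at 46 of 64 higher and 93 of 129 lower sites.

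Called sites of APC/C subunit genes were mostly lower after defeat, as were those of all genes up to 100 kb, the length range of these subunit genes. Over all genes of that range, 25.4% of susceptible and 35.6% of resilient sites were higher. The APC/C is a multi-subunit E3 ligase of the cell cycle that is also active in neurons. In susceptible mice 6 of its 11 genes (54.5%, against 20.9% of all genes) held a called site, with 9 lower and 2 higher sites. In resilient mice 4 genes (36.4%, against 15.5%) held 6 lower and 3 higher sites. Anapc2 encodes the cullin-like scaffold of the catalytic core. Its site at chr2:25278501-25282000, over coding exons, had 227, 172, 229 and 242 normalised reads in susceptible mice and 343, 289, 311 and 286 in controls. All susceptible libraries lay below all controls, with a change of -0.51 ± 0.12, and the authors' deposited table gives it an adjusted p of 4.4e-11, the smallest of any member in that comparison. Resilient mice had 129, 109, 136 and 115 reads against 195, 147, 149 and 157 at a narrower site with the same left edge (-0.40 ± 0.13), and the groups again did not overlap. Anapc1, the largest subunit gene of the complex, fell at 4 sites and rose at none in susceptible mice. At its leading site, the called site of smallest deposited p, the reads were 122, 106, 104 and 104 against 157, 146, 142 and 150.01 (-0.45 ± 0.13). In resilient mice Anapc1 carried 2 higher and 2 lower sites. Anapc10, a substrate-receptor subunit, had 2 higher sites in susceptible mice, and 1 higher and 1 lower site in resilient mice. The leading susceptible one had 179.79, 179.71, 162 and 183 reads against 125, 153, 116 and 169.54, with control library 34 inside the susceptible range (0.33 ± 0.13).

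Called sites reached the RefSeq promoter windows of 2 members, Anapc4 and Ube2h, a window running from 250 bases before to 50 after a start. Anapc4 encodes a structural subunit of the complex. In resilient mice the site chr5:52832901-52834400 covered the start, with 96.2, 102, 106 and 97.3 reads against 132, 108, 164 and 154 (-0.45 ± 0.14). The groups did not overlap. In susceptible mice the neighbouring site chr5:52832701-52833900 had 82.98, 65.02, 70.2 and 72.95 reads against 99.3, 73.7, 117 and 110.06 (-0.44 ± 0.16). It ends before the start and shares 16 bases with the promoter window, and there control library 28 fell within the susceptible range. Signal at this start was low: the authors' deposited table gives an enrichment over IgG of 0.47 in resilient mice and 0.66 in their controls. The 127 bases of the RefSeq promoter (GRCm38.p6, chr5:52833885-52834011, plus strand) that lie inside the resilient site and before the first annotated exon are shown because they are the start region that changed. Capitals mark GC boxes (GGGCGG, searched on both strands), of which the stretch holds 4, and its GC content is 68.5%.

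Anapc4: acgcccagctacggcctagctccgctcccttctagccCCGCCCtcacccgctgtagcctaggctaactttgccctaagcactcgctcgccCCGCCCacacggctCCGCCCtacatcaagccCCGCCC

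Ube2h, an E2 gene, was reached at the promoter of an internal RefSeq start. Its product works with a multi-subunit ligase first known from yeast sugar metabolism. Its resilient site chr6:30243901-30245600 had 120.04, 115, 151 and 118 reads against 151, 159, 179 and 164 in controls (-0.37 ± 0.13), and library 33 of the resilient group lay within the control range. The 153 bases that the promoter shares with the site (GRCm38.p6, chr6:30243901-30244053, minus strand) are printed to set against Anapc4. Capitals mark the only match to the motifs searched, a TATA box (TATAAA, on the opposite strand), and the GC content is 39.9%.

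Ube2h: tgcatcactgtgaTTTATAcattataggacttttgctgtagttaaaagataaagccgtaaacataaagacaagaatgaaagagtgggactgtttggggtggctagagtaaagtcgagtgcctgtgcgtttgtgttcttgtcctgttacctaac

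In RefSeq, 149 members had 188 promoters of 300 bases. A GC box stood in 64.4% of them against 35.7% of all 32851 promoters, the ETS motif CCGGAAG in 22.9% against 8.86%, and a TATA box in 5.85% against 13.6%. The CCAAT box was in 26.6% against 37.4%, the E-box CACGTG in 9.04% against 7.15% and the CRE TGACGTCA in 3.19% against 1.79%. The median number of CG dinucleotides was 22 at members and 7 over all promoters. Matches were counted on both strands and only describe letters. Called sites reached these promoters only at Anapc4 and Ube2h. Pairs of a site and a gene were also counted when the site's centre lay within 5 kb of the start. In susceptible mice 0 of 64 higher member pairs did (against 2.45% over all genes) and 7 of 131 lower ones (5.34%, against 9.93%). In resilient mice 3 of 39 higher (7.69%, against 3.85%) and 5 of 77 lower pairs did (6.49%, against 7.38%). In ELS mice 2 of 15 higher (13.3%, against 11.5%) and 2 of 23 lower pairs did (8.7%, against 8.14%).

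All 7 cullin genes held a called site in susceptible mice, against 20.9% of all genes, 2 with only higher and 5 with only lower sites. Cul1, scaffold of the F-box ligases, rose at 4 intronic sites. The leading site chr6:47465801-47466900 had 218, 181, 159.72 and 203 reads against 152, 166, 143 and 122 (0.39 ± 0.13). Susceptible library 32 lay within the control range there. In resilient mice Cul1 had 2 sites, both lower and both with overlapping groups, and the leading one had 127, 189.54, 166 and 164 reads against 204, 180.15, 216 and 203 (-0.32 ± 0.12). These sites do not overlap those of susceptible mice. Cul3, whose ligases use BTB-domain adaptors and which is a risk gene for autism, had a higher site in each defeat comparison. Reads at the susceptible one, which covers coding sequence and UTR, were 181, 218, 139 and 160.49 against 139, 161, 105 and 137 (0.36 ± 0.14). At the intronic resilient one they were 93.7, 155, 123 and 155 against 99.95, 113, 119 and 90.8 (0.30 ± 0.15). In both the groups overlapped.

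The other susceptible cullin sites were lower. Cul5, scaffold of ligases with SOCS-box receptors, had 86.9, 90.3, 99.2 and 114 reads against 133, 131, 129 and 144 (-0.46 ± 0.14). Cul7, which is mutated in a human growth disorder, changed at the same window of coding exons in both defeat comparisons, with 58.3, 36.1, 65.3 and 50.1 susceptible reads against 90.1, 87.6, 70.4 and 69.2 (-0.61 ± 0.17). At that window resilient mice had 67.2, 52.1, 57.8 and 51.1 reads against 92.4, 90.1, 71.96 and 70.9 (-0.50 ± 0.16). No stressed library reached the lowest control in these 3 comparisons. Cul2, partner of the VHL receptor, had a lower site in susceptible mice, with 65.2, 75.9, 42.4 and 74.8 reads against 82.8, 93.3, 92.8 and 86.99 (-0.49 ± 0.17), and a separate higher site in resilient mice, with 89.4, 105, 98 and 83.8 against 53.8, 88.9, 51.2 and 78.1 (0.50 ± 0.17). The susceptible groups did not overlap and the resilient groups did.

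Cul4a, scaffold of the DDB1 ligases, fell at 4 sites in susceptible mice and rose at 1 in resilient mice. Its leading susceptible site chr8:13128401-13130200 had 181, 174, 182 and 182 reads against 223, 271, 229 and 235 (-0.41 ± 0.12), with every susceptible library below every control. A susceptible lower site and the resilient higher site share 300 bp. At the first, reads were 126, 106, 167 and 124 against 197, 146, 199 and 168 (-0.45 ± 0.14), and at the second they were 168, 137, 159.74 and 141 against 143, 110.22, 111 and 107 (0.36 ± 0.13). Susceptible library 32 at the first and control library 25 at the second lay within the range of the other group. Usp12, a deubiquitinase that works with WD-repeat partners, showed the same arrangement over 100 shared bp. Its susceptible site had 64.2, 46.1, 67.8 and 60.2 reads against 87.3, 78.3, 84.3 and 85.2 (-0.50 ± 0.16) and its resilient site 93.7, 94.2, 104 and 117 against 69.8, 58.1, 80.7 and 67.2 (0.56 ± 0.16), and neither pair of groups overlapped. All other overlapping member sites of the susceptible and resilient comparisons were called in the same direction. The difference between susceptible and resilient mice was not tested, since the tables were normalised separately.

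**Figure D2:**
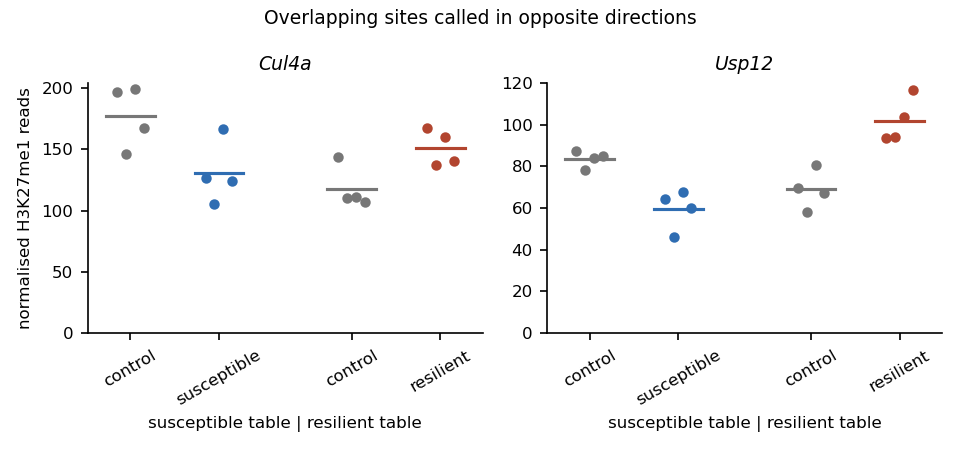
Normalised H3K27me1 reads (linear axis from 0) of each library at the overlapping Cul4a and Usp12 sites called in opposite directions, with group means as lines; control points are the same 4 libraries counted over different windows. Susceptible means fall below and resilient means rise above their controls at both genes.

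Among the 77 F-box genes, 20 (25.97%) held a called site in each defeat comparison, against 20.9% of all genes in the susceptible and 15.5% in the resilient table. In ELS mice 9 (11.7%) did, against 13.6%. The F-box shares in susceptible and ELS mice thus lay near the background. Susceptible sites were 15 higher and 27 lower, resilient sites 10 and 17, and ELS sites 7 and 2. Fbxl17, whose product checks the pairing of BTB-domain proteins, held 8 of the 15 higher susceptible sites. These were all intronic, in a gene of 442566 bp. Its 1 resilient rise was at chr17:63157901-63159500, with 120.04, 136, 116 and 159 reads against 113, 93.6, 75.2 and 85.4 (0.53 ± 0.15), and the groups did not overlap. Near the start, 9.37 kb in, a site over coding sequence and UTR fell in susceptible mice, with 70.1, 98.4, 109 and 112 reads against 117, 156, 177 and 97.6 (-0.47 ± 0.17). Control library 34 lay within the susceptible range, and resilient mice also had a lower site there. Fbxo3, a gene implicated in inflammatory signalling, rose at an intronic site in both defeat comparisons. The susceptible site had 122, 116, 139 and 141 reads against 97.5, 80.7, 99.2 and 81.7 (0.53 ± 0.14), with all susceptible libraries above all controls, and resilient mice had 112, 115, 121 and 134 against 92.4, 78.2, 98.1 and 79.04 (0.47 ± 0.14) at nearly the same window.

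Fbxw7, the receptor for cyclin E, Notch and Myc, was higher at 1 intronic site in each of the 3 H3K27me1 comparisons, at different positions. In resilient mice the reads were 93.7, 80.9, 87.2 and 94.4 against 60.4, 65.2, 61.1 and 63.6 (0.50 ± 0.15), without overlap. In susceptible mice they were 75.1, 87.6, 105 and 103 against 64.4, 91.02, 55.5 and 53.3 (0.50 ± 0.17), where control library 28 lay among the susceptible ones. A predicted gene shares these Fbxw7 windows. Fbxl5, the iron-sensing F-box protein, had 2 sites, both higher in susceptible mice, and no called site in the other comparisons, with 208, 188, 157 and 196 reads against 152, 139, 145 and 142 at the leading one (0.37 ± 0.13). Fbxo42, which targets p53, fell at 4 susceptible and 2 resilient sites. Its leading susceptible site had 127, 130.04, 148 and 113 reads against 168, 176, 207 and 184 (-0.50 ± 0.13), again without overlap. Fbxo10 fell at its last exon, which overlaps the neighbouring Polr1e gene, with 209, 204, 293 and 246 susceptible reads against 291, 286, 356 and 322 (-0.41 ± 0.12) and overlapping groups. Fbxo25 fell in susceptible (-0.35 ± 0.14) and in resilient mice (-0.48 ± 0.15) at separate sites, and Fbxo11 fell in resilient mice (-0.51 ± 0.15).

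Of the 34 E2 genes, 16 (47.1%, against 20.9% of all genes) held a called site in susceptible mice and 11 (32.4%, against 15.5%) in resilient mice. The E2 genes were the only group whose susceptible sites were about evenly split, 19 higher and 18 lower, and Ube2e2 held 9 of the 19. Ube2e2 is a long gene of 320693 bp. Its 11 susceptible sites, all intronic, ran from 13.5 to 273 kb behind the start, and 2 of them were lower. The leading site chr14:18619701-18622400 had 318, 298, 261 and 299 reads against 221, 236, 213 and 239.66 (0.37 ± 0.11). All susceptible libraries lay above all controls, and the authors' deposited table gives an adjusted p of 3.3e-06. Resilient mice had 3 higher Ube2e2 sites, the leading one with 91.1, 75.4, 84.3 and 107 reads against 72.6, 68.7, 59.97 and 52.7 (0.49 ± 0.16). In ELS mice the 2 called Ube2e2 sites were both lower. One of them shares bases with a higher resilient site, the only pair of overlapping member sites called in opposite directions in the 2 cohorts. Reads there were 45.9, 45.7 and 33.4 with ELS and SbD against 77.1, 64.1 and 79.3 in standard controls (-0.81 ± 0.18). At the resilient window they were 103, 67.6, 87.2 and 87.7 against 56.6, 68.7, 77.4 and 47.2 (0.47 ± 0.17), with overlap.

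Without Ube2e2, lower E2 sites outnumbered higher ones in susceptible mice. Ube2v2, a catalytically inactive E2 variant that pairs with Ube2n, rose at 2 sites in each defeat comparison, with 374, 414, 378 and 356 reads against 282, 317, 309 and 309.78 at the leading susceptible one (0.32 ± 0.11). Resilient mice had 197, 273, 196 and 218 against 174, 188, 170.1 and 176 at an overlapping window (0.30 ± 0.12). In neither comparison did these groups overlap. Ube2n itself, which builds non-degradative chains, had 1 lower site in susceptible and 1 in ELS mice. Ube2l3, an E2 that serves HECT and RBR ligases such as parkin, had the largest fall of any member in susceptible mice. Reads were 61.2, 66.8, 148 and 95.8 against 143, 129, 151 and 159.77 (-0.73 ± 0.18). Libraries 26 and 29 were far below the controls, library 35 was below them and library 32 lay inside their range. The site also covers the end of Ydjc. Ube2h fell at 3 susceptible and 5 resilient sites and rose at none, with 85.1, 76.5, 87.2 and 75.2 resilient reads against 111, 113, 121 and 104 at the leading site (-0.46 ± 0.15). Ube2k, which binds huntingtin, fell at 2 sites in each defeat comparison, and at 1 in ELS mice, where reads were 41.3, 58.8 and 47.5 against 75.1, 92.3 and 86.3 (-0.78 ± 0.17). Ube2j1, an E2 of the endoplasmic reticulum, fell in susceptible mice from 162, 224, 227 and 216 to 161, 146, 154 and 143 reads (-0.44 ± 0.13), without overlap. Ube2q1 fell at its only called site, in resilient mice, with 51.9, 58.8, 50.96 and 59.7 reads against 82.98, 66.4, 94.9 and 75.4 (-0.51 ± 0.16).

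Of the 10 HECT and E4 genes, 7 held a called site in susceptible mice, against 20.9% of all genes, 3 with only lower and 4 with both directions. These are long genes, with a median of 86283.5 bp, which leaves more room for a site. Of their sites, 13 were lower and 7 higher. Ube4b, an E4 that lengthens chains, fell at the same place in both defeat comparisons. Susceptible mice had 53.3, 55.1, 76.2 and 62.01 reads against 80, 100.23, 93.9 and 96.8 (-0.59 ± 0.16) and resilient mice 81.7, 84.2, 89.2 and 107 against 113, 139.85, 133 and 129 (-0.51 ± 0.14). Neither pair of groups overlapped. Ube4a fell at 3 susceptible sites, the leading one with 132, 155, 199.65 and 174 reads against 205, 220.06, 254 and 204 (-0.43 ± 0.13). Herc4 rose at an intronic window and fell at another site in each defeat comparison. At the higher window it had 164, 164, 154 and 183 susceptible reads against 138, 115, 89.6 and 139 (0.48 ± 0.14) and 122, 125, 138 and 121 resilient reads against 115, 82.96, 76.3 and 105 (0.43 ± 0.15). Herc2, a giant ligase of the DNA damage response, rose at 3 susceptible sites and fell at 1. Ube3b, which is mutated in a blepharophimosis and intellectual disability syndrome, fell at 4 exonic sites in susceptible mice and rose at 2 in ELS mice. Its leading sites had 125, 115, 157 and 116 susceptible reads against 200.45, 135, 171 and 182 (-0.42 ± 0.14), and 107, 87.7 and 105 ELS reads against 67.2, 61.2 and 56.7 (0.68 ± 0.16). The susceptible groups overlapped, and the 2 windows share no bases. Ube3a, the imprinted ligase gene of Angelman syndrome, held no called site after defeat and a single lower one in ELS mice.

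The USP genes held the most sites, 70 in susceptible mice, of which 54 were lower, and 45 in resilient mice, of which 33 were lower. A called site was held by 28 of the 50 genes (56%) in susceptible and 18 (36%) in resilient mice. Over all genes the shares were 20.9% and 15.5%. The USP genes have a median length of 52536 bp, which leaves more room for a site. In susceptible mice 18 of the 50 genes held only lower sites, 9 held both and 1, Usp25, held only higher ones. Usp5, which takes apart free ubiquitin chains, fell at overlapping coding exons in both defeat comparisons. Susceptible mice had 112, 133, 162 and 136 reads against 191, 188, 207 and 177 (-0.50 ± 0.13) and resilient mice 67.2, 77.6, 92.1 and 85.7 against 108, 109, 113 and 109 (-0.45 ± 0.15), both without overlap. Usp4 fell at 4 susceptible sites, the leading one with 211, 181, 267 and 219.76 reads against 288, 228, 352 and 283 (-0.38 ± 0.13), where susceptible library 32 lay among the controls. Usp37, a deubiquitinase of the cell cycle, fell at all 5 of its susceptible sites and at 4 of its 5 resilient sites. Usp7, the deubiquitinase of MDM2 and p53, fell at its last exons in susceptible mice, from 131, 122, 175 and 144 to 115, 72.2, 123 and 93.9 reads (-0.51 ± 0.15), with control library 28 inside the susceptible range. In resilient mice it rose at 2 intronic sites elsewhere, with 118, 121, 98.98 and 118 reads against 78.3, 75.8, 85.05 and 99.02 at the leading one (0.43 ± 0.15) and overlapping groups. Usp46, a relative of Usp12 for which a mouse mutation alters immobility in tail suspension, rose at 2 susceptible sites, with 177, 189.64, 167 and 188 reads against 143, 118, 127 and 146 (0.43 ± 0.13) and no overlap. It fell at another site, over UTR sequence.

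Usp34, a giant protease linked to Wnt signalling, showed both directions. In susceptible mice it had 4 higher and 3 lower sites, and in resilient mice 6 sites, all lower. Its leading resilient site had 183, 189.54, 168 and 184 reads against 223, 229, 246 and 213 (-0.33 ± 0.11), and its leading susceptible one 169, 196, 136 and 167 against 112, 149.78, 129 and 124 (0.37 ± 0.14). Only the resilient groups did not overlap. In ELS mice Usp34 fell at 3 coding-exon sites and rose at 1 in the 1000 bp before its start. The leading ELS site chr11:23439001-23440100 had 82.6, 97.05 and 89.5 reads against 136, 130.23 and 145 (-0.61 ± 0.14). It shares bases with a lower susceptible site that had 127, 116, 109 and 147 reads against 139, 149.78, 167 and 173 (-0.33 ± 0.14), with overlap. Usp32 fell at 5 resilient sites, with 243, 203, 202 and 182 reads against 285, 252, 226 and 299.79 at the leading one (-0.35 ± 0.11), where library 27 lay within the control range. Usp40 fell at 3 sites and rose at 1 in susceptible mice, and its higher site had 281, 238, 236 and 278 reads against 229, 194, 191 and 186 (0.37 ± 0.12). Usp24 held 4 lower and 1 higher susceptible sites, and its leading resilient site had 130.25, 121, 111 and 132 reads against 141, 167, 194 and 164 (-0.43 ± 0.13).

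**Figure D3:**
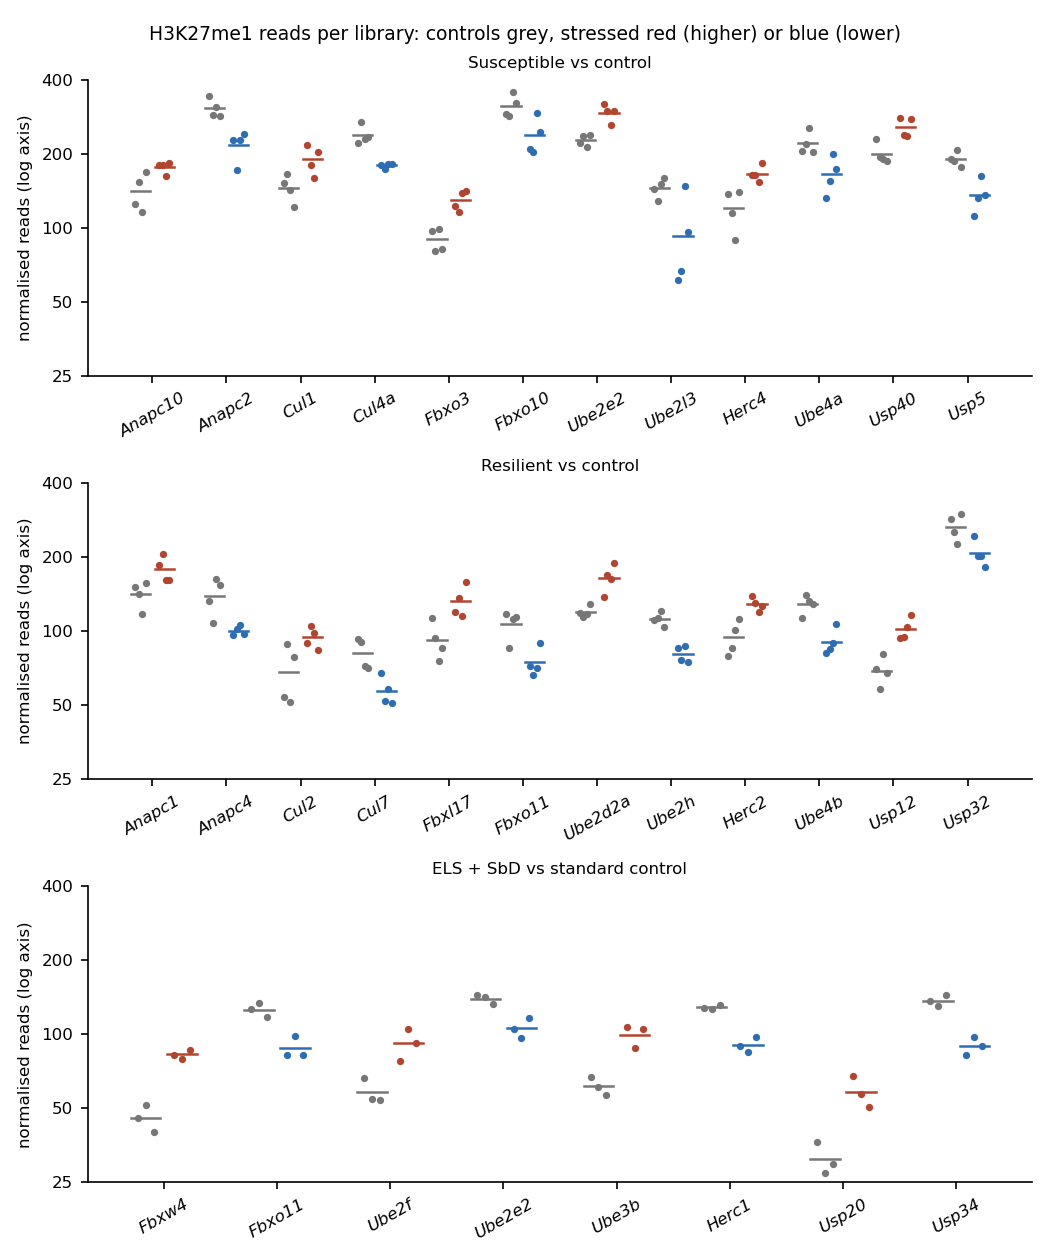
Normalised H3K27me1 reads (log axis) of every library, controls in grey and stressed libraries in red (higher) or blue (lower), at the higher and the lower site of smallest deposited adjusted p in each gene group, with group means as lines. Points of both groups stand apart in all 8 ELS pairs, while they overlap in 7 of the 24 defeat pairs, Ube2l3 and Anapc10 among them. Over all called sites the groups stood apart at 99.0% in ELS, 52.8% in susceptible and 54.7% in resilient mice. Sites of the 2 cohorts were selected by different tests, so the cohorts cannot be compared in this.

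In ELS mice 8 of 34 E2 genes (23.5%) and 9 of 77 F-box genes (11.7%) held a called site, against 13.6% of all genes. Among USP genes 10 of 50 (20%) did, and among HECT and E4 genes 3 of 10 (30%). The called sites split as follows. E2 sites were 10 lower and 1 higher, F-box sites 2 lower and 7 higher, USP sites 8 lower and 5 higher, and HECT and E4 sites 3 lower and 2 higher. Whether these splits differ between the gene groups was not tested. Among E2 genes, Ube2w, which modifies amino termini, had 149, 137 and 126 reads against 196, 188 and 181 (-0.45 ± 0.11). Ube2g1, an E2 of cullin ligases, fell at 3 sites, with 79.1, 97.98 and 96.01 reads against 124, 109.82 and 127 at the leading one (-0.40 ± 0.14). Ube2e3 fell from 84.97, 124 and 74.97 to 51.6, 58.8 and 50.7 reads (-0.78 ± 0.17). No ELS library at these sites reached a standard control. The 1 higher E2 site was in Ube2f, a NEDD8 enzyme, with 77.98, 105 and 91.7 reads against 66.2, 54.4 and 54.05 (0.64 ± 0.16).

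Ube3a had the largest fall of any member in ELS mice. Its site chr7:59289801-59291000, over UTR sequence in the annotation, had 37.8, 55.1 and 45.3 reads against 74.1, 102 and 85.4 (-0.91 ± 0.17). The authors' deposited table gives it an adjusted p of 0.0052 and an enrichment over IgG of 0.73 in ELS mice and 1.74 in controls. Herc1, a giant ligase whose mouse mutant loses cerebellar Purkinje cells, fell from 128, 126 and 132 to 89.5, 84.9 and 97.1 reads over a coding exon (-0.51 ± 0.14). Fbxo11 fell from 126, 134 and 118 to 82.6, 97.98 and 81.99 (-0.52 ± 0.14) and Fbxo3 from 114, 130.23 and 126 to 89.5, 91.5 and 97.1 (-0.41 ± 0.14). The Fbxo3 window overlaps a lower site of susceptible mice. Of the higher F-box sites, Fbxw4 had 82.6, 79.3 and 86.3 reads against 45.5, 51.5 and 40.1 (0.85 ± 0.17), Fbxw7 53.9, 49.5 and 38.8 against 32.6, 23.3 and 23.5 (0.82 ± 0.21) and Fbxl17 88.3, 91.5 and 100.33 against 72.1, 46.6 and 45.3 (0.79 ± 0.17). Fbxw14 had the largest rise of any member in ELS mice, 1.06 ± 0.25, but lies in a cluster of near-identical genes, so its reads are uncertain. Among USP genes, Usp20 rose from 36.6, 27.2 and 29.6 to 67.7, 56.9 and 50.7 reads (0.89 ± 0.20) and Usp10 from 20.8, 13.6 and 21.8 to 35.5, 36.4 and 45.3 (1.04 ± 0.23). Several of these rises were in weak signal: with an enrichment over IgG of at least 1 asked of both groups, 9 of the 15 higher and 22 of the 23 lower sites remained. The sites lost were those of Fbxl7, Fbxw14, Usp10, Usp12, Usp20 and Usp34 among the higher ones and Ube3a among the lower ones.

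Of the 189 members, 103 (54.5%, against 32.8% of all genes) held a called site in at least 1 of the 5 tables and 14 (7.41%, against 4.14%) in 3 of them. Among genes longer than 100 kb, 15 of 19 members (78.9%) and 78.0% of all genes held a site in some table. Those 14 were Ube2d2a, Ube2e2, Ube2e3, Ube2g1, Ube2k, Fbxl17, Fbxo3, Fbxw7, Usp12, Usp24, Usp32, Usp34, Usp40 and Usp47. Fbxw7 had only higher and Ube2k only lower sites in all 3 comparisons. Ube2d2a, a general E2, was higher in both defeat comparisons, with 82.98, 93.01, 110.11 and 100.31 susceptible reads against 67.1, 74.9, 66.1 and 72.8 (0.45 ± 0.15), and lower in ELS mice, with 66.5, 71.8 and 70.1 against 117, 113 and 112 (-0.71 ± 0.15). The susceptible and resilient Ube2d2a windows overlap, and the ELS window shares no bases with them. Usp47, a deubiquitinase of DNA polymerase beta, had 2 higher and 2 lower susceptible sites and 1 higher site in each of the other comparisons. The susceptible and ELS comparisons share no library, and 19 members held a called site in both, which is 22.6% of the 84 susceptible and 63.3% of the 30 ELS members. Over all genes, 1142 were called in both, which is 26.3% of the 4341 susceptible and 40.2% of the 2838 ELS genes. Long genes can hold sites in any comparison, so this is a description only.

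**Figure D4:**
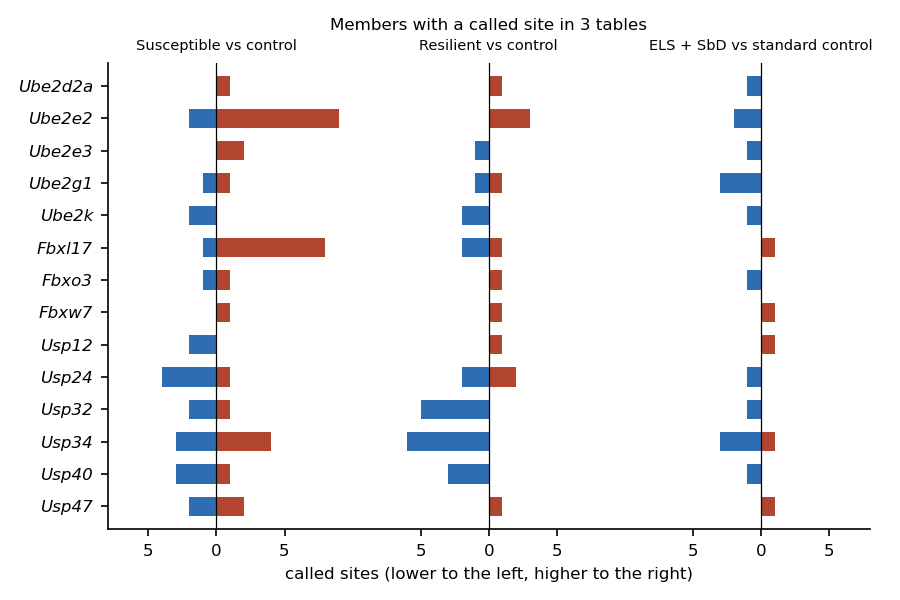
Called H3K27me1 sites, lower to the left and higher to the right, of the 14 members with a called site in all 3 comparisons, each with its own zero line. Ube2e2 and Fbxl17 stand out with 9 and 8 higher sites in susceptible mice, and Usp34 with 6 lower sites in resilient mice.

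Direction went with position in the gene. In susceptible mice 71 of 131 pairs of a lower site and a member overlapped an exon (54.2%), against 9 of 64 higher ones (14.1%). Over all genes the shares were 52.4% and 15.7%, so the member shares lay near those of the whole table. In resilient mice the member shares were 45.5% and 15.4%, and over all genes 40.02% and 19.5%. In ELS mice they were 39.1% of lower and 26.7% of higher member sites, against 22.5% and 24.6% over all genes. Cul1, Ube2e2 and Fbxl17 show the intronic gains, since all 4, all 9 and all 8 of their higher susceptible sites missed every exon. The falls of Anapc2, Cul7, Usp5 and Ube3b show the exonic losses. Other members went against this pattern. In susceptible mice all 4 Usp47 sites, 2 of them higher, and the 1 higher Cul3 site overlapped an exon. Ube2h, Usp30, Fbxl20 and Fbxw8 each had 3 lower susceptible sites, all intronic.

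**Figure D5:**
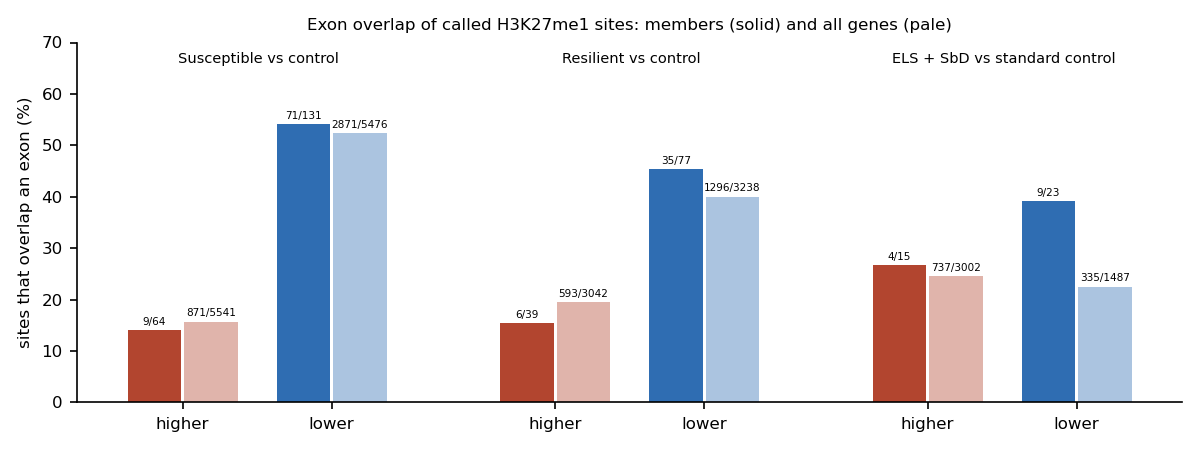
Share of called H3K27me1 sites that overlap an exon (percent, axis from 0), for higher and lower sites in each comparison, members solid and all genes pale, with counts above the bars. Lower sites are exonic more often than higher ones after defeat, at members as at all genes.

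Sites were also counted by gene length and base composition. The 19 members longer than 100 kb held 33 higher and 23 lower sites in susceptible mice, while the 170 shorter ones held 31 higher and 108 lower. Over all genes, 74.6% of sites in genes longer than 100 kb were higher, and 25.4% in shorter genes, against 58.9% and 22.3% at members. In resilient mice the member shares were 33.3% in long and 33.7% in shorter genes, against 60.9% and 35.6% over all genes. In ELS mice they were 30.8% and 44%, against 67.3% and 66.2%. The 11 members with only higher sites in susceptible mice had a median transcript GC content of 45.3% and the 53 with only lower sites 49.7%. In ELS mice the order was the other way round, with 49.6% for 13 members with only higher and 43.7% for 16 with only lower sites. Over all genes the same medians were 43.95% and 50.7% in susceptible mice, and 49.9% and 45.7% in ELS mice. The part of base composition or length in the member changes was not tested.

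Called H3K27me2 sites were rare at these genes, as they were over all genes, of which 0.769% in susceptible and 1.22% in resilient mice held one. In susceptible mice 0 member sites were called, against a higher site in 0.509% and a lower site in 0.356% of all genes, and the table lists no member window at any p. In resilient mice 1 higher site was called, in 0.529% of members, against 0.774% of all genes with a higher and 0.596% with a lower site. It lies in Usp17le, with 165, 161, 183 and 166 reads in libraries 51, 54, 57 and 60 against 141, 118, 123 and 136 in control libraries 49, 52, 55 and 58 (0.38 ± 0.15). Usp17le belongs to a cluster of near-identical copies, so these reads may come from other copies.

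Lists of other genes of the pathway were counted in the same way. In susceptible mice 47 of 80 other E3 ligase genes held a called site, 24 with a higher and 35 with a lower one, and 35 of 54 partners of cullins and the APC/C did, 15 with a higher and 29 with a lower one. The counts were 14 of 27 for other deubiquitinases (5 and 11), 12 of 36 for the proteasome (2 and 11) and 9 of 19 for ubiquitin, ubiquitin-like and E1 genes (3 and 6). In resilient mice they were 40 of 80, 23 of 54, 10 of 27, 9 of 36 and 5 of 19 in the same order, and in ELS mice 26, 7, 1, 5 and 1. Over all genes the shares with a called site were 20.9%, 15.5% and 13.6%. In ELS mice the lists other than the E3 ligases (32.5%) lay near or below that background, with 13% of cullin and APC/C partners, 13.9% of proteasome genes, 3.7% of other deubiquitinases and 5.26% of ubiquitin and E1 genes.

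Markers of cell types also held called sites. In susceptible mice 18.75% of medium spiny neuron, 14.3% of astrocyte, 14.3% of microglia and 12.5% of oligodendrocyte markers did, against 20.9% of all genes. In the same order the resilient shares were 18.75%, 14.3%, 14.3% and 0%, against 15.5% of all genes. The ELS shares were 37.5%, 28.6%, 14.3% and 12.5%, against 13.6%. Of 16 medium spiny neuron markers, 3 held 6 higher and 0 lower sites in susceptible mice, 3 held 7 higher and 2 lower in resilient mice, and 6 held 13 higher and 4 lower in ELS mice. Of 7 microglia markers, Cx3cr1 held 0 higher and 6 lower sites in susceptible mice, and 1 marker held 1 lower site in each of the other comparisons. Of 7 astrocyte markers, 1 held 3 higher sites in susceptible mice, 1 held 1 higher and 1 lower in resilient mice, and 2 held 3 higher in ELS mice. Of 8 oligodendrocyte markers, 1 held 1 lower site in susceptible and 1 held 1 higher site in ELS mice. The 6 vascular and the 8 cortical and interneuron markers held none. The part of cell makeup in the member changes was not tested. The tables list changed windows and not expression, so they do not check the tissue label, and a change in cell numbers and in the mark per cell cannot be told apart.

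The other 86 members held no called site in any table. They include Anapc5, Anapc13 and Anapc16 of the APC/C, Ube2b, Ube2d3 and Ube2m among the E2 genes, Herc3 and Herc6, and Usp2, Usp16, Usp22 and Usp53. Usp17la, Usp17lb, Usp17lc and Usp17ld are also among them, as are Fbxw13, Fbxw15 and most other genes of the Fbxw cluster. The tables list selected windows only, so the level of the mark at these genes was not analysed here.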

How the data were processed

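H3K27me1 and H3K27me2 were measured by CUT&RUN in 48 samples of 14 groups, and 24 further samples of 7 groups are IgG controls. The 5 deposited tables compare some of these groups. The submitters' processing notes name Trim Galore (version 0.6.5), Bowtie2 (version 2.4.1) and mm10. Per the file headers, diffReps 1.55.4 scanned windows of 1000 bp in steps of 100 bp with a p limit of 0.0001, so each table holds only windows that differed. The headers give a G-test on pooled reads for the defeat tables and a negative binomial test for the ELS table.

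The deposited signal per library is normalised reads per site, divided by the authors' library constants. The authors also deposited group means of this signal, log2 fold changes, ratios of enrichment over IgG, and p-values with Benjamini-Hochberg adjustment. No table of whole-genome levels was used here.

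Sites were assigned to GENCODE genes of mm10 by an overlap of at least 1 bp with the gene body or the 1000 bp before its start. A site was called at a deposited adjusted p under 0.05. limma 3.58.1 was fitted to log2(normalised reads + 1) over all rows of each table, 2-sided, and was tested on simulated data first. Tables were normalised separately, so tests stay within a table. Libraries were grouped by the labels, and library numbers only name them. The limits of precision are the 3 or 4 libraries a group and the depths given with the results. Alternatives covered stricter p, overlap and enrichment limits, another pseudocount, and each library left out.

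The members, lists and tests were chosen with earlier results of these data known. Genes described with values were the 2 higher and 2 lower of smallest adjusted p in each gene group and table, members called in 3 or more tables, the 3 members with most sites in each table, members with a site before their start, the extreme changes, and Ube3a, Cul3, Anapc2 and Usp7. Ube2n, Usp25 and Usp37 were named for their counts of sites after their values were seen. Promoters come from RefSeq (GRCm38.p6).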

Additional observations from a re-analysis of the deposited data

Results flagged for a closer look

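In 8 of the 164 groups of 4 libraries examined at leading sites, 1 library stood apart by Dixon's 95% criterion, and chance alone would give this in about 1 of 20 groups. In the resilient comparison these were Cul4a, with 143.33 reads in control library 25 against 107.2 to 111.22 in the other controls, and Fbxo11, with 85.33 in control library 28 against 112.31 to 116.93. Usp5 had 113.4 in control library 31 against 108.44 to 109.04, and Usp7 had 98.98 in resilient library 33 against 117.54 to 120.82. In the susceptible comparison, Anapc1 had 122.5 reads in library 26 against 103.95 to 105.66, and Anapc10 had 162.14 in library 32 against 179.71 to 183.29. Usp12 had 93.17 in library 32 against 72.95 to 74.95, and Usp40 had 228.95 in control library 25 against 186.4 to 193.56.

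At 2 genes, overlapping sites were called in opposite directions after defeat. All other overlapping member sites of the susceptible and resilient comparisons were called in the same direction. The share of opposite pairs over all genes is not given here. The authors' deposited table gives Cul4a a log2 change of -0.44 in susceptible and 0.36 in resilient mice. It gives Usp12 -0.49 and 0.57. The flag required every susceptible library to lie on one side of its control mean and every resilient library on the other. That susceptible libraries all lay below and resilient ones all above is therefore part of the selection and no separate result. The difference between the groups was not tested, and the windows overlap only in part.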

How the results depend on the processing

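Of the counts of called member sites, those of ELS mice changed most with the settings: the higher sites dropped from 15 to 9 with an enrichment over IgG of at least 1 in both groups. The limma count for H3K27me2 in resilient mice went from 1 to 0 without resilient library 57. An adjusted p limit of 0.01, the gene body alone, at least 50% of the site inside the gene, and a mean of at least 10 reads kept all other counts within 1.5 times. So did sites that overlap no other protein-coding gene, an alternative chosen after seeing the data. Leaving out each library in turn kept 55 to 61 of the susceptible higher and 111 to 125 of the lower sites, and 29 to 37 and 62 to 74 of the resilient ones. The limit there was a G-test p no larger than that of any called site, 0.0021 in susceptible and 0.0012 in resilient mice. All 15 and 23 ELS sites were kept, but at a looser limit, an unadjusted limma p under 0.05. The ELS and defeat counts are therefore not comparable. Such counts cannot rise above the full count by construction. The limma counts ranged from 168 to 183, 102 to 113 and 38 to 38, and from 0 to 1 for H3K27me2 in resilient mice.

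At the 107 leading sites no direction reversed, and a pseudocount of 5 moved none across the limma p limit of 0.05. With 1 library left out, 773 refits stayed under it and 33 did not. In susceptible mice the latter were Anapc10 (without library 25 or 31), Cul2 (32), Cul3 (29 or 31), Fbxl17 (26 or 31), Fbxo25 (25), Ube2e3 (31, 32 or 34), Ube2k (26), Ube2w (31 or 34), Usp24 (26, 31 or 34) and Usp34 (29). In resilient mice they were Anapc1 (33), Cul1 (27), Cul3 (25, 30, 33, 34 or 36), Fbxo10 (31), Ube2e3 (28), Ube2f (25), Ube2k (27 or 34), Ube2v2 (30), Usp47 (30) and, for H3K27me2, Usp17le (57). The cause was not tested.

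A rebuilt G-test came within 0.05 on the log10 scale of the deposited p at 99.9%, 99.9%, 99.2% and 99.2% of rows of the defeat tables. It was used to leave out libraries of those tables. The ELS header names a negative binomial test, and there libraries were left out with limma at an unadjusted p under 0.05. The planned count models (edgeR, its TMM scaling and DESeq2) were not run, since the deposited values per library are normalised. No paired analysis was possible because the library numbers are unique to each library. ELS depth of 5 to 7.78 reads per bin limits small changes.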
